A study of Mus musculus with 4 samples.

Results

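The 10 genes described here encode granule proteins of neutrophil precursors, a membrane and a surface protein of myeloid cells (Ms4a3 and Ly6c2) and transcription factors of the myeloid lineage: Mpo, Elane, Prtn3, Ctsg, Ms4a3, Ly6c2, Cebpe, Spi1, Gfi1 and Irf8. They were taken by symbol, and all 10 of them are among the 31053 genes of the files. The choice rested on measured values of these same libraries, a higher level of Mpo and a lower level of Ly6c2 without STAT5, so their levels are given as a description with no test. The cells are KLS cells of the bone marrow, that is stem and progenitor cells that lack lineage markers and carry c-Kit and Sca-1 on their surface, sorted from mice of 8 to 12 weeks. The STAT5 KO library came from mice labelled Vav1-Cre/+STAT5abfl/fl, in which Cre driven by the Vav1 promoter acts in blood cells on floxed Stat5a and Stat5b. The control library came from mice labelled Vav1-Cre/+STAT5ab+/+, so both groups carry the Cre transgene. Marrow of 4 mice is named in the labels, which give no identity of single mice, and each group is 1 library of droplet single-cell RNA sequencing. As a group is a single library, differences have no replicate check and no p-value, and all 95% intervals cover counting error only.

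Granule proteins are made early in the path from stem cell to neutrophil and monocyte and are stored in azurophil (primary) granules. Mpo encodes myeloperoxidase, which makes hypochlorous acid, and Elane, Prtn3 and Ctsg encode the serine proteases neutrophil elastase, proteinase 3 and cathepsin G. Among the factors, PU.1 (Spi1) and C/EBP proteins switch these genes on, Gfi1 favours the neutrophil fate, and Irf8 favours monocytes and dendritic cells. STAT5 is the transcription factor through which interleukin-3 and related cytokines signal in these progenitors.

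The genes lie apart in the genome, save 1 pair. Coordinates are those of GENCODE M21 on GRCm38, a build named in the submitters' processing notes. Mpo lies on chromosome 11 (87793581 to 87804413, plus strand), 12.98 Mb from Stat5b on the same chromosome. Prtn3 (chromosome 10, 79874476 to 79883174) and Elane (79886247 to 79888215) are neighbours on the plus strand with 3.07 kb between them. Ctsg is on chromosome 14 (56099881 to 56102574, minus strand), Ms4a3 on chromosome 19 (11629496 to 11640851, minus strand) and Ly6c2 on chromosome 15 (75108158 to 75111970, minus strand). All 10 are annotated as protein-coding. RefSeq promoters of GRCm38.p6, 250 bases before to 50 bases after the start, were found for 8 members, not for Cebpe and Spi1. They are printed for the genes that were higher without STAT5 (Mpo, Ctsg, Prtn3) and for Ly6c2, which was lower. That of Elane is printed too, as the neighbour of Prtn3 that differed little when all cells were summed. The RefSeq starts of Mpo, Elane and Prtn3 lie inside the spans that GENCODE gives these genes. Capitals mark GAGGAA, the core bound by PU.1, and TTCNNNGAA, the core bound by STAT factors.
Mpo, chr11:87793534-87793833, plus strand: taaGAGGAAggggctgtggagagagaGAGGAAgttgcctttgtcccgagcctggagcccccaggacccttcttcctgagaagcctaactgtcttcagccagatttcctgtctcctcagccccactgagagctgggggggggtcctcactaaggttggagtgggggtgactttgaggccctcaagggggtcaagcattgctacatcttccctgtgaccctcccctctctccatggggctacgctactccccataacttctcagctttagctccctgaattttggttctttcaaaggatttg
Ctsg, chr14:56102525-56102824, minus strand: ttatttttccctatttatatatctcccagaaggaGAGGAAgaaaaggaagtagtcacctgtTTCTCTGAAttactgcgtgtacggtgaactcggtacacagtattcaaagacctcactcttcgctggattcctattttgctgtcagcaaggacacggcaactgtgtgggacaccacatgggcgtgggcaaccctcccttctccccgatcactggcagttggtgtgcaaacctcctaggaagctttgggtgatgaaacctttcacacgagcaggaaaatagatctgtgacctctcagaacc
Prtn3, chr10:79879417-79879716, plus strand: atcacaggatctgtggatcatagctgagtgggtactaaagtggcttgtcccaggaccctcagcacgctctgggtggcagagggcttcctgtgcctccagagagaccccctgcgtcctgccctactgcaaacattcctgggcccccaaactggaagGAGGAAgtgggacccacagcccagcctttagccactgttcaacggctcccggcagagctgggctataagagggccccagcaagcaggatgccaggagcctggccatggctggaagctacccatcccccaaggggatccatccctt
Elane, chr10:79886062-79886361, plus strand: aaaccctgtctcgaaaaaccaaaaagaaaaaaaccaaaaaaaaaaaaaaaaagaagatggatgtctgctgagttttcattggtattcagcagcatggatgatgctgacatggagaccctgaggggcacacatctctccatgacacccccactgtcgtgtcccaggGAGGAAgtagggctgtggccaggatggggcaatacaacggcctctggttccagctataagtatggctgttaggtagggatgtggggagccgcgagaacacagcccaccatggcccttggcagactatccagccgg
Ly6c2, chr15:75111922-75112221, minus strand, the first of 2 starts: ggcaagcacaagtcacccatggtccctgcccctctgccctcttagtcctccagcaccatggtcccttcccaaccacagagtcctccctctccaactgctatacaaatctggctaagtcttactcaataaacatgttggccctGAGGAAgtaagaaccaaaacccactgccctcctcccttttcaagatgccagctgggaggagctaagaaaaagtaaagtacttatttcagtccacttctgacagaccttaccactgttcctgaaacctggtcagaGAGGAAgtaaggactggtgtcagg

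All 5 printed promoters hold GAGGAA, as does that of Ms4a3, while those of Gfi1 and Irf8 do not. Among 27025 promoters of the same length, 1 per gene, 28.3% hold it on either strand. TTCNNNGAA stands once in the Ctsg promoter and at 2 places in the first of 2 Irf8 promoters, against 8.47% of all promoters. The C/EBP core TTGCNNAA was found in the promoters of Ms4a3 and Gfi1 (10.8% of all), the paired GAAA motif of IRF factors in none of the 8 genes (3.49% of all) and the GFI1 core AAATCNC in that of Irf8 (11.7% of all). Both strands were searched, and in the first Irf8 promoter the GFI1 match overlaps a STAT match. Gfi1 and Irf8 each have 2 promoters, and the matches named for them all lie in the first. These matches describe the letters of the windows only.

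Depth and labels were checked first. The libraries held 55138419 unique molecular identifiers (UMIs, one per captured transcript) in control and 82466835 in STAT5 KO. After filtering, 3085 control and 6726 STAT5 KO cells were used, with medians of 15136 and 10085 UMIs. The libraries shared 290 cell barcodes with each other, and barcodes that held more UMIs in another library of the series were left out (369 and 261 cells, with 0.696% and 0.321% of the kept UMIs). Keeping them moved the log2 ratio of Mpo from 0.94 to 0.95 and that of Ly6c2 from -0.59 to -0.60. Levels are given as CPM, the UMIs of a gene per 1000000 UMIs of the library. Stat5a was at 68.5 CPM in control against 6.74 in STAT5 KO, and Stat5b at 60.8 against 4.49 CPM, as the labels say. The sort markers were present at the full, unequal depth of the libraries. A UMI of Kit was found in 89.9% of control and 77.6% of STAT5 KO cells. One of Ly6a, which encodes Sca-1, was found in 50.1% and 35.0%. With 5000 UMIs drawn from each cell that held as many, the shares were 63.9% and 56.8% for Kit and 26.5% and 21.2% for Ly6a. Of 6 stromal markers the summed level was 0.411 and 0.550 CPM, with Pdgfra at 0 in both libraries.

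Of the 10 genes, 4 were at least 25% higher in STAT5 KO (Mpo, Ctsg, Ms4a3, Prtn3) and 2 were at least 20% lower (Ly6c2, Cebpe), by the ratio of CPM summed over all cells. Both limits are the same fold, and a gene beyond either is called higher or lower below. Over all 12072 genes with at least 100 UMIs in the 2 libraries together, 7.67% were higher and 13.5% lower by this rule (2.05% and 5.14% at 1.5-fold, where 2 members were higher and 1 lower), and the median log2 ratio was -0.01. All 10 members passed that UMI minimum. Since the members were chosen from this contrast, nothing is read from their count.

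**Figure D1:**
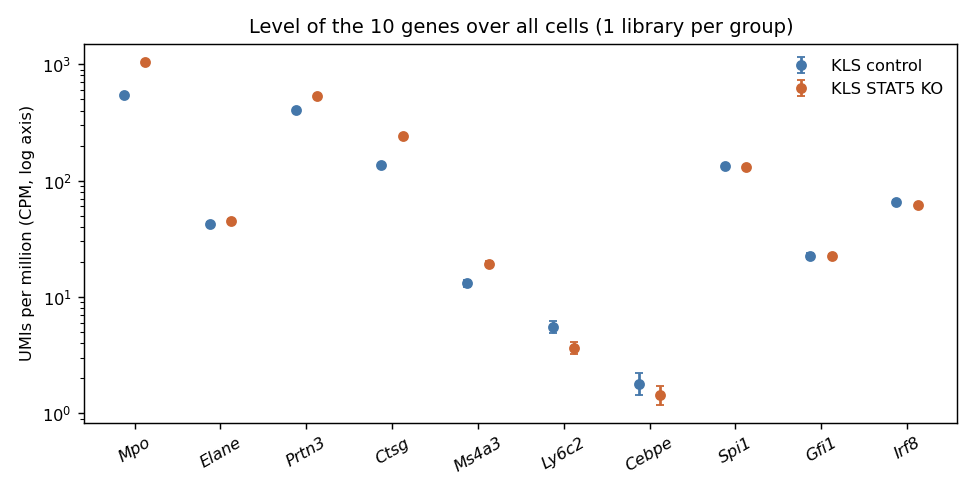
Level of each gene in CPM (log axis) in the KLS control and KLS STAT5 KO libraries, 1 library each, with exact Poisson 95% intervals of the UMI sums, most of them smaller than the points. Mpo, Prtn3, Ctsg and Ms4a3 lie higher in STAT5 KO, Ly6c2 lies lower, and Spi1, Gfi1 and Irf8 nearly coincide.

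The peroxidase gene Mpo stood at 547 CPM in control (541 to 554) and 1053 CPM in STAT5 KO (1046 to 1061). This is a 1.92-fold higher level, a log2 ratio of 0.94 (0.92 to 0.96). Ctsg, for cathepsin G, stood at 136 CPM (133 to 139) and 239 CPM (236 to 243), a log2 ratio of 0.81 (0.77 to 0.85). Summed over all cells, the 2 neighbours on chromosome 10 differed from each other in this contrast. They did not without the top 0.3% of cells by each gene, a setting chosen after the data were seen. There the log2 ratio was 0.43 (0.40 to 0.45) for Prtn3 and 0.42 (0.27 to 0.58) for Elane. Over all cells the levels were as follows. Prtn3 stood at 407 CPM (402 to 413) and 537 CPM (532 to 542), a log2 ratio of 0.40 (0.38 to 0.42). Elane stood at 42.6 CPM (40.8 to 44.4) and 45.0 CPM (43.5 to 46.6), a log2 ratio of 0.08 (0.00 to 0.16). The sign of the Elane ratio changed with the way cells were combined: it was -0.052 as the mean CPM of single cells and -0.023 without cells that carry basophil protease UMIs. Ms4a3, a membrane protein gene of granulocyte and monocyte progenitors, stood at 13.1 CPM (12.1 to 14.1) and 19.3 CPM (18.3 to 20.3), a log2 ratio of 0.56 (0.43 to 0.70).

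Of the 4 factors, 3 were near their control level. Spi1 stood at 133 CPM (control) and 130 CPM (STAT5 KO), a log2 ratio of -0.03 (-0.07 to 0.02), and Gfi1 at 22.4 and 22.5 CPM, a log2 ratio of 0.00 (-0.10 to 0.11). Irf8 stood at 65.5 and 61.4 CPM, a log2 ratio of -0.09 (-0.16 to -0.03). None of these 3 passed the fold in either direction. Cebpe, for the C/EBP protein of later granules, was close to the limit of use, with 92 UMIs in control and 109 in STAT5 KO. Its levels were 1.80 and 1.43 CPM, and the interval of its log2 ratio of -0.33 ran from -0.75 to 0.08.

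Shares of cells were compared after each cell was thinned at random to 5000 UMIs, which left out 41 control and 905 STAT5 KO cells of lower depth. Mpo was found in 55.7% of 3044 thinned control cells (54.0 to 57.5%) and in 76.8% of 5821 thinned STAT5 KO cells (75.7 to 77.8%). The difference was 21.01 percentage points (18.9 to 23.1). Unthinned, the shares were 69.7% and 81.3%. Ctsg was found in 16.8% and 29.8% of thinned cells, a difference of 13.02 points (11.2 to 14.8). For Prtn3 the shares were 71.6% and 76.0%, a difference of 4.47 points (2.52 to 6.44) that had the opposite sign unthinned, at 87.6% and 86.0%. The difference was 1.995 points for Ms4a3 (1.09 to 2.86) and 0.75 points for Elane (0.09 to 1.37). For Spi1, Gfi1, Irf8, Cebpe and Ly6c2 the interval of the difference included 0. Within cells that pass an erythroid gate (Klf1 and Gata1), a background class of another lineage at the same 5000 UMIs per cell, Mpo was found in 2 of 21 thinned control cells and 10 of 40 thinned STAT5 KO cells. Prtn3 was found in 3 of the 21 and 10 of the 40, a wider gap in shares than over all cells, from few cells. Ctsg and Elane were found in none of these cells, which allows shares of up to 14.3% and 7.5%.

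The Mpo distribution differed in all classes of cells by UMI number. Thinned cells without Mpo made up 44.3% in control and 23.2% in STAT5 KO. Cells with 5 to 9 Mpo UMIs made up 10.7% and 22.7%, and cells with 10 or more made up 3.88% (3.22 to 4.62%) and 12.7% (11.9 to 13.6%). Ctsg at 10 or more UMIs was found in 0.821% and 1.495% of cells, and Prtn3 in 1.15% and 2.68%. Elane at 10 or more UMIs was found in 0.427% and 0.361% of cells, shares whose intervals overlap.

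**Figure D2:**
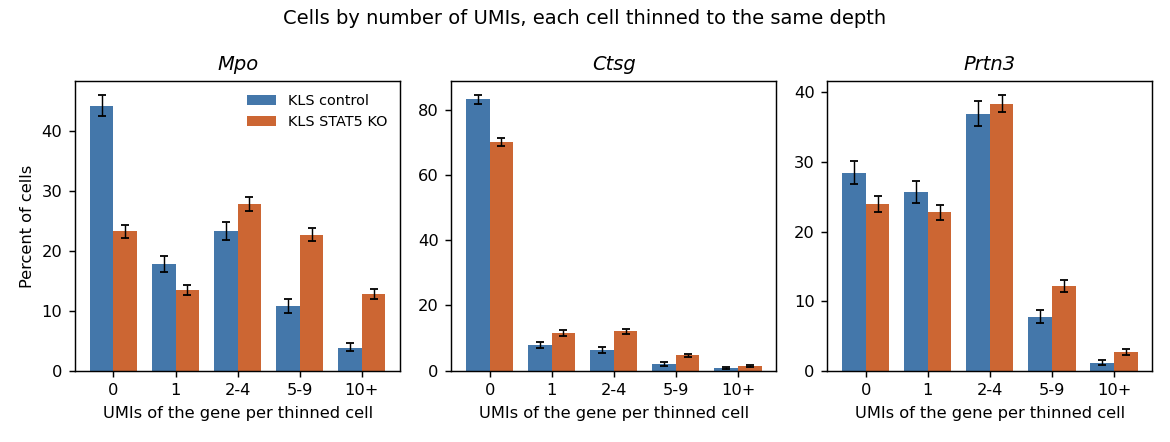
Percent of cells by number of UMIs of Mpo, Ctsg and Prtn3 after each cell was thinned to 5000 UMIs, in KLS control and KLS STAT5 KO, with exact Clopper-Pearson 95% intervals. Cells with no Mpo UMI are 44.3% in control and 23.2% in STAT5 KO, and each class with 2 or more Mpo UMIs is larger in STAT5 KO.

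Ly6c2 encodes Ly-6C, a surface protein of monocytes and their precursors, and it was the only member besides Cebpe that was lower by the fold. Its level was 5.51 CPM in control (4.89 to 6.20) and 3.65 CPM in STAT5 KO (3.24 to 4.11), 1.51-fold lower, with a log2 ratio of -0.59 (-0.84 to -0.35). These levels rested on few cells: 282 UMIs in 45 of 3085 control cells and 279 UMIs in 68 of 6726 STAT5 KO cells. In control 5 cells held 50.4% of the Ly6c2 UMIs, and 1 cell held 20.9%. In STAT5 KO 5 cells held 40.5% and 1 cell 15.4%. That library has more cells, so 5 cells are a smaller share of it, and its top 10 cells held 59.1%. UMIs of 1 cell are not independent draws, so the counting intervals of levels and ratios are too narrow for all members. The UMIs of Ly6c2, Elane and Cebpe sat in the fewest cells. The share of thinned cells with a Ly6c2 UMI was 0.526% in control (0.301 to 0.852%) and 0.618% in STAT5 KO (0.434 to 0.855%), with no difference detectable at this depth. The order was opposite at 7100 UMIs per cell (1.12% and 0.818%) and unthinned (1.46% and 1.01%). The log2 ratio in the cells thinned to 5000 UMIs was -0.071 (-0.65 to 0.53) from 39 and 71 UMIs, and -0.56 as the level expected over all possible draws. Reads of the Ly6c genes are uncertain in addition, since the transcripts of Ly6c2 and Ly6c1 are 97.6% identical over 822 aligned positions. Ly6c1 had 21 and 19 UMIs.

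Elane had the same uneven spread, and the broad granule genes did not. The 10 cells with the most Elane UMIs held 77.4% of them in control and 48.9% in STAT5 KO. For Mpo 10 cells held 9.16% and 3.11%, and for Spi1 1.87% and 1.11%. STAT5 KO has more cells, so 10 cells are a smaller share of that library. Its top 20 cells held 70.5% of the Elane UMIs, 5.54% for Mpo and 2.01% for Spi1. With the top 0.3% of cells by each gene left out of each library (10 control and 21 STAT5 KO cells), the log2 ratio was 1.00 for Mpo, 0.93 for Ctsg, 0.43 for Prtn3, 0.72 for Ms4a3, 0.42 for Elane and -0.87 for Ly6c2. That setting was chosen after the data were seen.

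**Figure D3:**
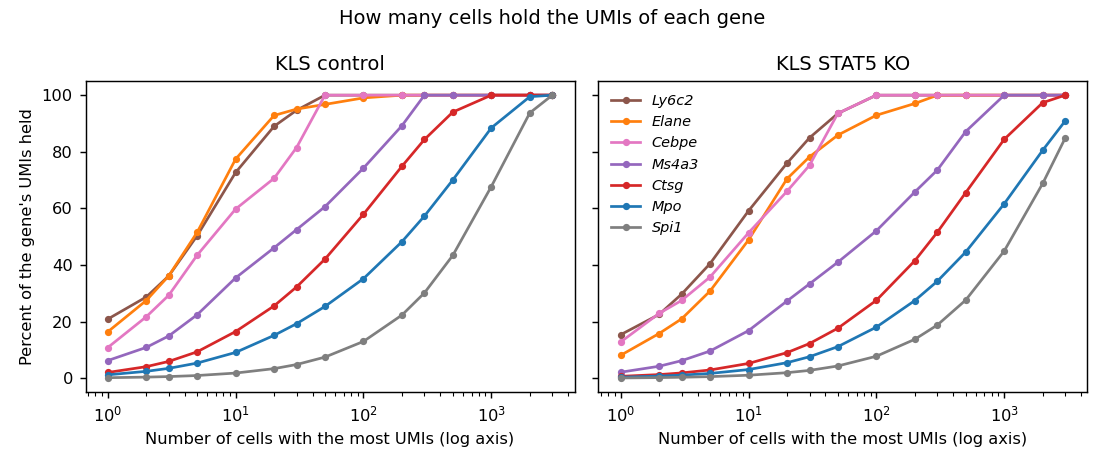
Percent of each gene's UMIs held by the cells with the most of them (number of cells on a log axis), in KLS control and KLS STAT5 KO. For Ly6c2 and Elane 10 cells hold 72.7% and 77.4% in control, while for Mpo 10 cells hold 9.16%. The STAT5 KO library has more cells, so equal numbers of cells are unequal shares of the libraries.

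Cells with at least 5 Elane UMIs after thinning were examined as a class, chosen after the data were seen. They numbered 16 in control (0.526% of cells, 0.301 to 0.852%) and 33 in STAT5 KO (0.567%, 0.391 to 0.795%). All of them held Mpo, Prtn3 and Ctsg. Their Mpo level differed by less than counting error, 41.0 UMIs per thinned cell (37.9 to 44.3) in control and 40.8 (38.7 to 43.1) in STAT5 KO, and so did that of Prtn3 at 24.9 (22.5 to 27.4) and 25.3 (23.6 to 27.1). Ctsg was at 16.4 (14.5 to 18.5) and 13.9 (12.6 to 15.2), Ly6c2 at 1.81 (1.21 to 2.60) and 1.21 (0.866 to 1.65) and Cebpe at 0.875 (0.478 to 1.47) and 0.364 (0.188 to 0.635) UMIs per thinned cell. These few cells held 74.4% of the Ly6c2 UMIs and 60.9% of the Cebpe UMIs of thinned control cells, against 56.3% and 37.5% in STAT5 KO. They held 9.80% and 5.08% of the Mpo UMIs. In cells with no Elane UMI at all, 98.2% and 97.5% of thinned cells, Mpo was at 1.92 (1.87 to 1.97) and 4.10 (4.05 to 4.16) UMIs per thinned cell and Ctsg at 0.376 (0.354 to 0.398) and 0.789 (0.766 to 0.812). Unthinned, cells with at least 1 Elane UMI stood at 2758 and 3841 CPM of Mpo, a log2 ratio of 0.48 (0.44 to 0.52), and at 83.3 and 47.4 CPM of Ly6c2, a log2 ratio of -0.81 (-1.08 to -0.55).

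Levels were next compared within cells of lineage gates, each fixed by UMIs of genes other than the members. The gates were stem (Hlf, Mecom and Procr), lymphoid (Dntt), megakaryocyte (Pf4), erythroid (Klf1 and Gata1) and myeloid (at least 2 of Cebpa, Csf1r, Csf3r, Clec12a, Fcgr3 and Igsf6). A cell could pass more than 1 gate, and deeper cells pass more easily. In control and STAT5 KO, 16.5% and 6.01% of cells passed the stem gate (5.03% and 2.34% on thinned cells), 47.4% and 52.6% the lymphoid gate (36.3% and 44.1% thinned) and 14.9% and 8.98% the megakaryocyte gate (8.61% and 6.41% thinned). The erythroid gate took 2.50% and 2.10%. The myeloid gate took 36.7% and 29.0%, and 9.49% (8.48 to 10.6%) and 10.3% (9.49 to 11.1%) of thinned cells, where the intervals overlap.

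The Mpo level was higher in STAT5 KO in all 5 gates as set on whole cells. Within the lymphoid gate it stood at 492 and 1000 CPM, a log2 ratio of 1.02 (1.00 to 1.05). The ratio was 0.93 (0.91 to 0.95) in the myeloid gate, from 873 to 1663 CPM, and 0.92 (0.85 to 0.98) in the stem gate, from 358 to 675 CPM. In the megakaryocyte gate it was 0.85 (0.78 to 0.93), from 254 to 459 CPM. In the erythroid gate it was 0.36 (0.15 to 0.58), from 129 to 166 CPM, with -0.023 when that gate was set on thinned cells. The erythroid value leaned on 1 STAT5 KO cell that held 136 of the 459 Mpo UMIs. A Mpo UMI was found in 45.5% of control and 40.4% of STAT5 KO cells of that gate. Cells outside all 5 gates stood at 301 and 770 CPM, a log2 ratio of 1.35 (1.29 to 1.42). With STAT5 KO cells weighted to the gate shares of control, the ratio over all cells was 0.90, against 0.94 without weights. For this each cell got 1 label from the whole-cell gates, with erythroid put before megakaryocyte, lymphoid, stem and myeloid. Those gates depend on depth, which differed between the libraries. Whether the makeup of the cells bears on the ratio was not tested.

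Ctsg was likewise higher in all 5 gates, by log2 ratios from 0.78 (0.74 to 0.83) in the myeloid gate to 1.45 (0.88 to 2.04) in the erythroid gate, the last from 34 and 112 UMIs, of which 1 STAT5 KO cell held 61. Prtn3 differed between gates. Its log2 ratio was 0.46 (0.39 to 0.53) in the stem gate, 0.50 (0.46 to 0.53) in the lymphoid gate and 0.52 (0.48 to 0.55) in the myeloid gate. It was 0.09 (0.01 to 0.17) in the megakaryocyte gate, where the sign changed with the gate setting, and -0.43 (-0.67 to -0.18) in the erythroid gate, where it was 0.57 on thinned cells. Ms4a3 was higher in the stem, lymphoid, megakaryocyte and myeloid gates, with log2 ratios of 1.00, 0.98, 0.82 and 0.59. In the erythroid gate its 39 and 52 UMIs were under the minimum of 100. Setting the gates on thinned cells changed several of these values: in the myeloid gate the ratio was 0.57 for Mpo, 0.38 for Ctsg, 0.14 for Prtn3 and 0.00 for Ms4a3, and in the stem gate it was 2.22 for Ctsg.

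Elane in the lymphoid gate was at 2.53 and 18.1 CPM, a log2 ratio of 2.84 (2.48 to 3.22) that was 1.51 with gates set on thinned cells. There 41 of 1463 control cells (2.80%) and 117 of 3536 STAT5 KO cells (3.31%) had an Elane UMI, but cells with 10 or more numbered 1 and 11. The highest cells held 12 and 151 UMIs. In the stem gate, 1 control cell held 142 of the 180 Elane UMIs and 1 STAT5 KO cell held 94 of 113.

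Among the factors, Spi1 stood at 132 and 107 CPM in the stem gate, a log2 ratio of -0.31 (-0.46 to -0.16), and at -0.31 (-0.45 to -0.16) in the megakaryocyte gate, both short of the fold. With gates set on thinned cells these were -0.60 and -0.67. In the erythroid gate it was lower, at -0.59 (-0.99 to -0.18). In the myeloid gate, at 151 and 153 CPM, and in the lymphoid gate, at 140.1 and 139.9 CPM, it hardly differed. Gfi1 was lower only in the megakaryocyte gate, at -0.57 (-0.99 to -0.16) from 137 and 79 UMIs, among the gates where it had 100 UMIs. Irf8 passed the fold in no gate set on whole cells, from -0.18 (-0.25 to -0.10) in the lymphoid gate to 0.15 (-0.20 to 0.50) in the stem gate, which were -0.36 and -0.42 with gates set on thinned cells. Whether ratios differ between gates was not tested.

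Counted by gate, 4 members of 8 with at least 100 UMIs were higher and 0 lower in the stem gate, where 8.3% and 9.35% of 9589 genes were. The lymphoid gate had 5 higher and 0 lower of 9 (7.68% and 12.3% of all genes), with Elane past the minimum only through STAT5 KO (68 and 778 UMIs), and the megakaryocyte gate 3 higher and 1 lower of 7 (9.62% and 10.4%). The erythroid gate had 2 higher and 2 lower of 4 (12.3% and 13% of all genes). Of these, Ctsg passed the minimum only through STAT5 KO, where 1 cell held 61 of its 112 UMIs. The other higher one was Mpo, for which 1 STAT5 KO cell held 136 of 459 UMIs. The myeloid gate had 4 higher and 1 lower of 10 (7.88% and 12.8%), the lower one being Ly6c2 at -0.36 (-0.61 to -0.11). In the lymphoid gate Ly6c2 was at -0.06 (-0.65 to 0.54) from 41 and 63 UMIs. In the stem gate it had 31 and 1 UMIs, under the minimum, and 1 control cell held 20 of the 31.

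**Figure D4:**
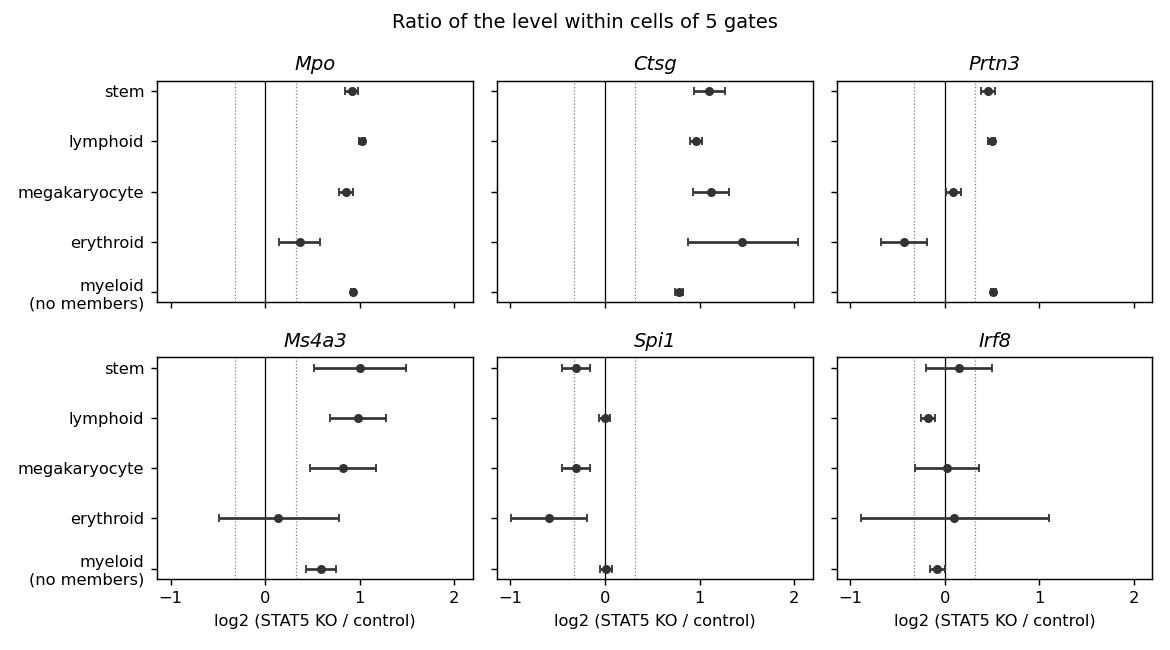
Log2 ratio of STAT5 KO over control for 6 members within cells of 5 gates, with exact conditional binomial 95% intervals and dotted lines at 25% higher and 20% lower. Mpo and Ctsg lie to the right of 0 in every gate, Prtn3 in 4 of 5, and Spi1 lies left of 0 in the stem, megakaryocyte and erythroid gates.

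Pearson correlations across thinned cells, on log counts, describe which genes are found in the same cells. Mpo was most like Ctsg in both libraries, with r = 0.56 in control and 0.59 in STAT5 KO over 3044 and 5821 cells. By r in control, the genes that followed among 8331 others included Plac8, H2afy, Prtn3, Calr, Ccl9 and Cd48, with r from 0.47 to 0.32. In STAT5 KO these genes and Ctsg had r from 0.28 to 0.59 and ranks from 1 to 13. Their own ratios did not all follow Mpo: Ccl9, a chemokine gene, was 1.16 higher on the log2 scale, Calr, the chaperone needed for myeloperoxidase folding, was 0.37 higher, while Plac8 was at -0.05 and Cd48 at 0.03. Elane was most like Ly6c2 among the members (r = 0.63 in control and 0.56 in STAT5 KO), then Ms4a3 (0.61 and 0.48). The next was Cebpe in control (0.54, against 0.26 in STAT5 KO) and Ctsg in STAT5 KO (0.35, against 0.42 in control). Irf8 was most like Ighm, Plac8, H2afy and Dntt in control, with r from 0.34 to 0.31. Gfi1 had r of at most 0.07 with each of the other 9 members in both libraries. For Ly6c2 no gene in at least 5% of cells had r above 0.28.

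Wider lists of the pathway were counted by the same rule, by which 7.67% of all genes were higher and 13.5% lower. All but the receptor list hold members, which were chosen from this contrast, so nothing is read from these counts and medians. Among the granule genes named next, Mpo, Prtn3, Ctsg and Ms4a3 are members. Of 25 granule protein genes 17 had at least 100 UMIs, with 7 higher (Mpo, Prtn3, Ctsg, Ms4a3, Hp, Nkg7 and Calr) and 1 lower (S100a8), and a median log2 ratio of 0.13. Hp, for haptoglobin, was at 2.37 and 4.49 CPM, and S100a8 at 2.56 and 1.89 CPM. The other 8 are Lcn2, Mmp8, Mmp9, Ltf, Camp, Ngp, Fcnb and Bpi, mostly genes of later granules, with 0 to 37 UMIs per library. Lyz2, for lysozyme, was at 186 and 150 CPM, a log2 ratio of -0.32, just short of the fold, and Srgn, for the granule proteoglycan serglycin, at -0.30.

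Of 16 myeloid factor genes 14 had enough UMIs, with 0 higher and 3 lower (among them Cebpe and Nfe2) and a median of -0.05. Beside this list and the next 2, the shares over all genes were 7.67% higher and 13.5% lower. Cebpa, which opens the myeloid path, was at 38.2 and 40.3 CPM, a log2 ratio of 0.08. Nfe2 was at 123 and 91.6 CPM. Among 15 myeloid receptor genes 2 were higher and 1 lower. Csf3r, the granulocyte colony-stimulating factor receptor, was at 44.0 and 56.0 CPM, Ccr2, a monocyte chemokine receptor, at 3.13 and 6.74 CPM, and Tlr4 at 4.38 and 2.98 CPM. Of 14 monocyte genes, 13 of them with enough UMIs, 2 were higher (F13a1 and Ccr2) and 4 lower (Ly6c2, Ly86, Ctss and Fcer1g), with a median of -0.20. Fcer1g was at 72.0 and 47.6 CPM.

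Paralogs of the members were compared too, in lists that also hold members, so nothing is read from their counts. Over all genes 7.67% were higher and 13.5% lower. Among the heme peroxidase genes, Epx had 0 and 10 UMIs and Lpo 0 and 1, both under the minimum of 100. Of 8 granule serine proteases 7 had enough UMIs, with 5 higher. Gzmb passed the UMI minimum only through STAT5 KO, where it was high, and Gzma, with 56 and 3 UMIs, was under the minimum, so the filter bears on this count. Besides Prtn3 and Ctsg the higher ones were Gzmb (0.235 and 1.43 CPM, from 12 and 109 UMIs), Prss34 (20.7 and 30.02 CPM) and Mcpt8 (15.0 and 31.6 CPM). Prss34 and Mcpt8 encode proteases of basophils and mast cells. In the Ly6 family 4 of 8 genes had enough UMIs, of which Ly6c2, Ly6a and Ly6d were lower. Ly6a, part of the sort, was at 65.2 and 48.8 CPM and Ly6d, an early B lineage marker, at 2.70 and 0.301 CPM, the latter gene past the UMI minimum only through control.

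Of 7 markers of mast cells and basophils 4 were higher (Mcpt8, Prss34, Fcer1a and Gzmb), 1 was lower (Cma1) and 2 passed no fold (Cpa3 and Ms4a2). Over all genes 7.67% were higher and 13.5% lower. Fcer1a (49 and 318 UMIs) and Gzmb (12 and 109) passed the minimum of 100 UMIs only through STAT5 KO, where they were high. Cma1 (126 and 79) passed it only through control, so the filter bears on this count. The summed level of the 7 was 79.9 and 115 CPM. Cells with 2 or more UMIs of Mcpt8 and Prss34 together were 2.07% of control and 3.06% of STAT5 KO cells and held 15.0% and 22.1% of the Ms4a3 UMIs. Without them the log2 ratio was 0.46 for Ms4a3, 0.94 for Mpo, 0.80 for Ctsg and 0.35 for Prtn3, so each still passed the fold. Neutrophil markers were scarce, 7 genes summing to 4.77 and 4.22 CPM, and monocyte and macrophage markers summed to 19.8 and 19.4 CPM. Eosinophil markers summed to 7.27 and 6.00 CPM with Epx at 0 in control, and B and plasma cell markers to 245 and 274 CPM with Ms4a1 at 0 in STAT5 KO. Single markers went opposite ways within these sums. Of 5 monocyte and macrophage markers with at least 100 UMIs, Ccr2 was higher and C1qa and C1qb were lower. Of 4 such B and plasma cell markers, Jchain was higher and Ebf1 lower (86 and 18 UMIs). Ighm made up 201 and 223 CPM of that last sum. S100a8 and Siglecf were lower as well. C1qb (150 and 90 UMIs) passed the minimum only through control. The part of these other cell types in the results was not tested beyond the basophil proteases.

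STAT5 KO cells that still held a Stat5a or Stat5b UMI after thinning numbered 276, against 5545 without. Mpo was at 2.08 UMIs per thinned cell with such a UMI and 4.68 without, a log2 ratio of -1.17 (-1.30 to -1.05), where control cells stood at 2.20. Ctsg (0.529 and 0.966) and Irf8 (0.058 and 0.279) were lower with one, and so was Spi1 (0.319 and 0.652). For the other members the interval of the ratio included equal levels. These were Prtn3 (2.33 and 2.48), Elane (0.145 and 0.141), Ms4a3 (0.109 and 0.077), Ly6c2 (0.022 and 0.012), Gfi1 (0.076 and 0.116) and Cebpe (0.0036 and 0.0056). The makeup of these cells differed: 10.1% of them passed the lymphoid gate against 45.8% of the others, and 10.1% the stem gate against 1.95%. Within gates the direction was not uniform. Mpo was at 4.39 UMIs per cell in the 28 lymphoid gate cells with a Stat5 UMI and 4.22 in the others, and at 0.643 against 1.38 in the stem gate (28 cells). It was at 0.525 against 1.38 in the megakaryocyte gate (40 cells) and at 17.6 against 8.94 in the myeloid gate (9 cells).

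**Figure D5:**
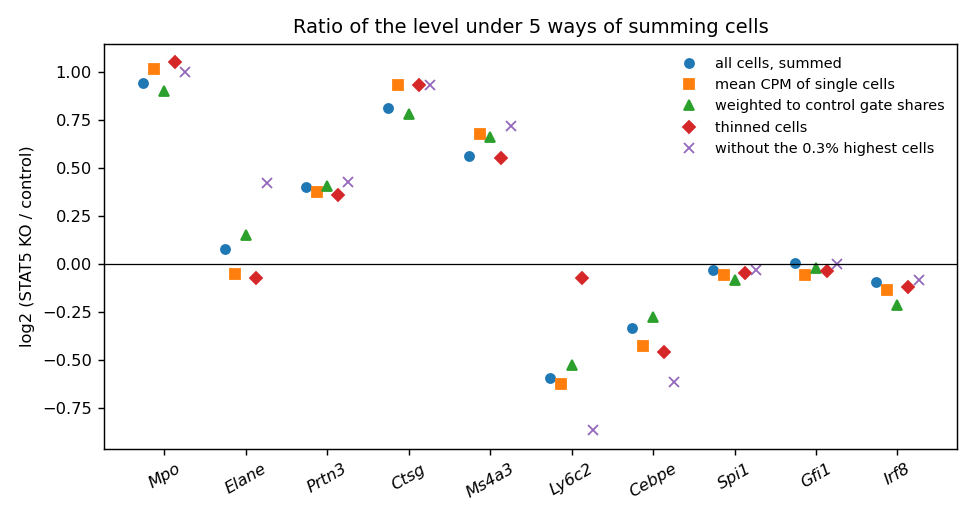
Log2 ratio of STAT5 KO over control for the 10 members with all cells summed, as mean CPM of single cells, weighted to control gate shares, in thinned cells and without the 0.3% of cells with the most UMIs of the gene. The points of Mpo lie between 0.90 and 1.05 and those of Ctsg between 0.78 and 0.93, while those of Elane run from -0.074 to 0.42 and those of Ly6c2 from -0.87 to -0.071.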

How the data were processed

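The deposited matrices hold raw counts of UMIs per gene and cell barcode, with no normalization, from 10x Chromium 3′ version 3 libraries, per the labels' protocols. Cell Ranger and the builds GRCm38 and mm10 are named in the submitters' processing notes, and the matrices carry software version 3.1.0, per the file headers. Cell calling and the strand rule are not given in the sources used here. Barcode and gene lists hold identifiers only.

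Barcodes with under 200 genes or over 10% of UMIs from mitochondrial genes were dropped. Doublets were left out by Scrublet score (scanpy 1.11.5) at 0.8% of barcodes per 1000 barcodes, 446 STAT5 KO and 109 control cells past the filter, and so were barcodes that held more UMIs in another library. Free RNA was not corrected. Counts were added up over cells and expressed as CPM of the library's total. 3′ counts were not divided by length, so levels are not compared between genes. Intervals at 95% are exact Poisson for sums, Clopper-Pearson for shares and conditional binomial for ratios. A share of 0 allows 3 counts of the total. Alternatives covered the cell filter, doublets, shared barcodes, edgeR 4.0.16 TMM factors, averaging, weighting, gates, thinning, pseudocounts and UMI minimums.

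The members and lists were chosen with earlier results of these data known. Named genes are the members, Stat5a and Stat5b, list genes, and the 8 genes most correlated with Mpo, Ly6c2 or Irf8 in control. Some genes named by this rule are not reported here. Ratios were tested on simulated data. Python 3.11.15, scipy 1.17.1 and R 4.3.3 were used.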

Additional observations from a re-analysis of the deposited data

Results flagged for a closer look

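The MSC libraries, sorted as stromal cells and used in no comparison above, also held UMIs of the members above the 3 counts that a count of 0 allows. In the MSC STAT5 KO library (374 cells) there were 465 Elane UMIs, all in 1 cell. It held 289 Mpo UMIs in 6 cells, 458 Prtn3 UMIs in 13 cells, 134 Ctsg UMIs in 2 cells and 49 Ms4a3 UMIs in 1 cell. Ly6c2 had 14 UMIs there, Cebpe 4, Spi1 6 and Irf8 17. In the MSC control library (577 cells) Irf8 had 59 UMIs in 38 cells, Prtn3 16, Ly6c2 8 and Gfi1 4, while Mpo had 1 and Ctsg 0.

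Prtn3 had a log2 ratio of 0.52 in the myeloid gate and -0.43 in the erythroid gate of the KLS cells, opposite directions for 1 contrast in different cells. The difference was not tested, and the erythroid value was 0.57 when gates were set on thinned cells.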

How the results depend on the processing

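The log2 ratio of Mpo (0.94) was 0.91 under the stricter cell filter, 0.97 with TMM factors, 1.02 as mean CPM of single cells, 0.90 weighted to control gate shares, 1.05 in thinned cells and 1.00 without the top 0.3% of cells. That of Ly6c2 (-0.59) was -0.071 in the thinned draw and -0.87 without the top 0.3%. Members past the fold were 4 higher and 2 lower; at 1.5-fold these were 2 and 1. Lower members were 0 with a pseudocount of 10 CPM and 1 with TMM factors. Elane (0.08) was -0.052 as a mean over cells, -0.074 in thinned cells and -0.023 without basophil protease cells, the last chosen after the data were seen. In the myeloid gate Elane (0.29) was -0.45 with thinned gates and -0.15 in cells of 1 gate only. In the megakaryocyte gate Prtn3 (0.09) was -0.24 with at least 2 UMIs of Pf4, -0.17 with thinned gates and -0.22 in cells of 1 gate only. In the erythroid gate thinned gates gave -0.023 for Mpo (0.36) and 0.57 for Prtn3 (-0.43). The share difference of Prtn3 (4.47 points) was -1.67 unthinned. The cause of these changes was not tested. Of 90 other values of the log2 ratio over all cells 68 stayed within the counting interval, as did 66 of 127 within gates.

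At 1.5-fold the list counts were 3 of 7 granule genes higher and 0 of 1 lower, 1 of 3 factors lower, 1 of 2 receptors higher and 0 of 1 lower, 2 of 4 monocyte genes lower and 3 of 5 proteases higher. Over all genes tested, 2.05% were higher and 5.14% lower at that fold, and nothing is read from the list counts. With a pseudocount of 10 CPM the lower counts were 0 for granule genes and receptors and 1 each for factors, monocyte genes and the Ly6 family, and 1 receptor was higher. With a minimum of 20 UMIs 1 protease and 5 Ly6 genes were lower. With shared barcodes kept, 3 granule genes and 5 factors were lower. No paired analysis was possible because each group is 1 library with no replicate. That lack, the few cells that hold Ly6c2, Elane and Cebpe, and the unequal depth of the libraries limit these results.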
